A study of Arabidopsis thaliana with 8 samples.

Results

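The genes described here are 6 nuclear genes of photosynthesis in Arabidopsis thaliana: LHCB4.1 (AT5G01530) and LHCB4.2 (AT3G08940) of the light-harvesting antenna, PSAE-1 (AT4G28750) of photosystem I, and PRK (AT1G32060), SBPASE (AT3G55800) and RCA (AT2G39730) of carbon fixation. Each was read by 1 probe set of the Affymetrix ATH1 array that the platform annotation assigns to that gene alone, so 6 of 22746 probe sets that are not array controls are described, and all 6 passed the filter on low signal that left 15026 probe sets for testing. Seedlings of accession Ws-0, 8 days old, were compared in 4 groups of 2 biological replicates, with 1 array per sample. A first group carried a 35S:LEC2-GR transgene and had received dexamethasone for 4 h, and a second was the same line after 1 h of dexamethasone. The third was wild type without the transgene after 4 h of dexamethasone, and the fourth was the transgenic line with no treatment, called uninduced here. The transgene fuses LEAFY COTYLEDON2 (LEC2), a transcription factor of embryo development, to a glucocorticoid receptor domain that keeps it inactive until dexamethasone is given. The 35S promoter is known to be active in most plant cells, not in green tissue alone. How many seedlings made up a sample, and whether the line is 1 transformant, are not given in the sources used here. Untreated wild type and wild type at 1 h are not among the groups, so between wild type at 4 h and uninduced seedlings the treatment, the elapsed time and the transgene cannot be told apart. Within the line, activation of the fusion, the treatment and the elapsed time changed together, so its own comparisons do not separate them either.

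In the thylakoid membranes of chloroplasts, antenna proteins bind chlorophyll and pass absorbed light energy to the photosystems, whose electron transport makes ATP and NADPH. The Calvin cycle spends both on fixing CO2 through Rubisco and on remaking the sugar phosphate that accepts CO2. The nuclear genes for these proteins are among the most highly expressed genes of green seedlings and are known to respond to light, sugars and development.

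Signal is given as the intensity of the authors' deposited table, on a linear scale, and changes are differences of log2(intensity + 45) with their standard error (SE). A gene is said to have risen or fallen in a comparison where its Benjamini-Hochberg adjusted p over all tested probe sets was under 0.05 in limma. The authors' scaling had set the trimmed mean of every array to 500.05, and array medians lay between 170 and 191. The top of the distribution was not level: the 99.9th percentile was between 24212 and 30412 on the 6 treated arrays, against 32110 and 38558 on the uninduced arrays. By mean over all arrays LHCB4.1, PSAE-1 and RCA ranked 9, 11 and 13 of the 15026 tested probe sets, and LHCB4.2, PRK and SBPASE ranked 111, 166 and 201. Each comparison is therefore also given after quantile normalization, which gives all arrays the same distribution of values. From the instrument records it was inferred that wild type and uninduced arrays were run together, as were those of the line at 1 h and at 4 h, so run and group cannot be told apart where treated samples of the line are set against the uninduced line or wild type. A record of high image background stands against 4 h replicate 2, and without it 6 of 6 genes still fell in the line at 4 h against uninduced. The ratio of 3' to 5' GAPDH control signal, a measure of RNA integrity, was 1.59 to 2.46 in the line at 4 h, 2.32 to 3.37 at 1 h, 2.66 to 2.74 in wild type and 2.3 to 3.22 in uninduced seedlings. The same ratio for actin was higher, at 6.9 and 13.4 on the uninduced arrays and 8.64 to 12.1 on the treated arrays. Only 2 arrays per group limit the precision, and in RNA from seedlings fewer green cells and less of a transcript per cell cannot be told apart.

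Under the authors' scaling all 6 genes were lower than in the uninduced line after 4 h of dexamethasone, both in the transgenic line and in wild type. Their signals in the line at 4 h were 35.4% to 75.5% of the uninduced mean, and those of wild type 35.6% to 76.0%. In the line at 4 h against uninduced, 6 of 6 fell, in a comparison where 16.8% of all tested probe sets were called lower. In wild type against uninduced 6 of 6 fell as well, where 14.3% of all tested probe sets were called lower. Among the brightest 5% of tested probe sets, which hold all 6 genes, 31% were called lower in the line and 25.7% in wild type. The median change of the 6 genes was -0.68 in the first and -0.62 in the second, against medians of -0.01 and 0.03 over all tested probe sets, and both comparisons share the uninduced arrays. After quantile normalization 3 of the 6 fell in each, LHCB4.2, PRK and SBPASE, where 16.9% and 14.7% of probe sets were called lower, and the medians were -0.38 and -0.34. LHCB4.1, PSAE-1 and RCA, the 3 brightest, did not pass the test after quantile normalization. Cyclic loess, a rescaling that follows signal strength, left 5 of 6 lower in each comparison, all but PSAE-1, where 17.2% of probe sets were called lower for the line and 15.7% for wild type. Fits with no filter or no mean-variance trend also ended the calls of these 3 in wild type, and of PSAE-1 in the line. Under the authors' scaling both arrays of the line at 4 h lay below both uninduced arrays for 6 of 6 genes, against 33.6% of all tested probe sets, and the same held in wild type for 6 of 6, against 31.4%. After quantile normalization 4 of 6 did so in the line, against 34.7%, and 4 of 6 in wild type, against 33.3%.

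**Figure D1:**
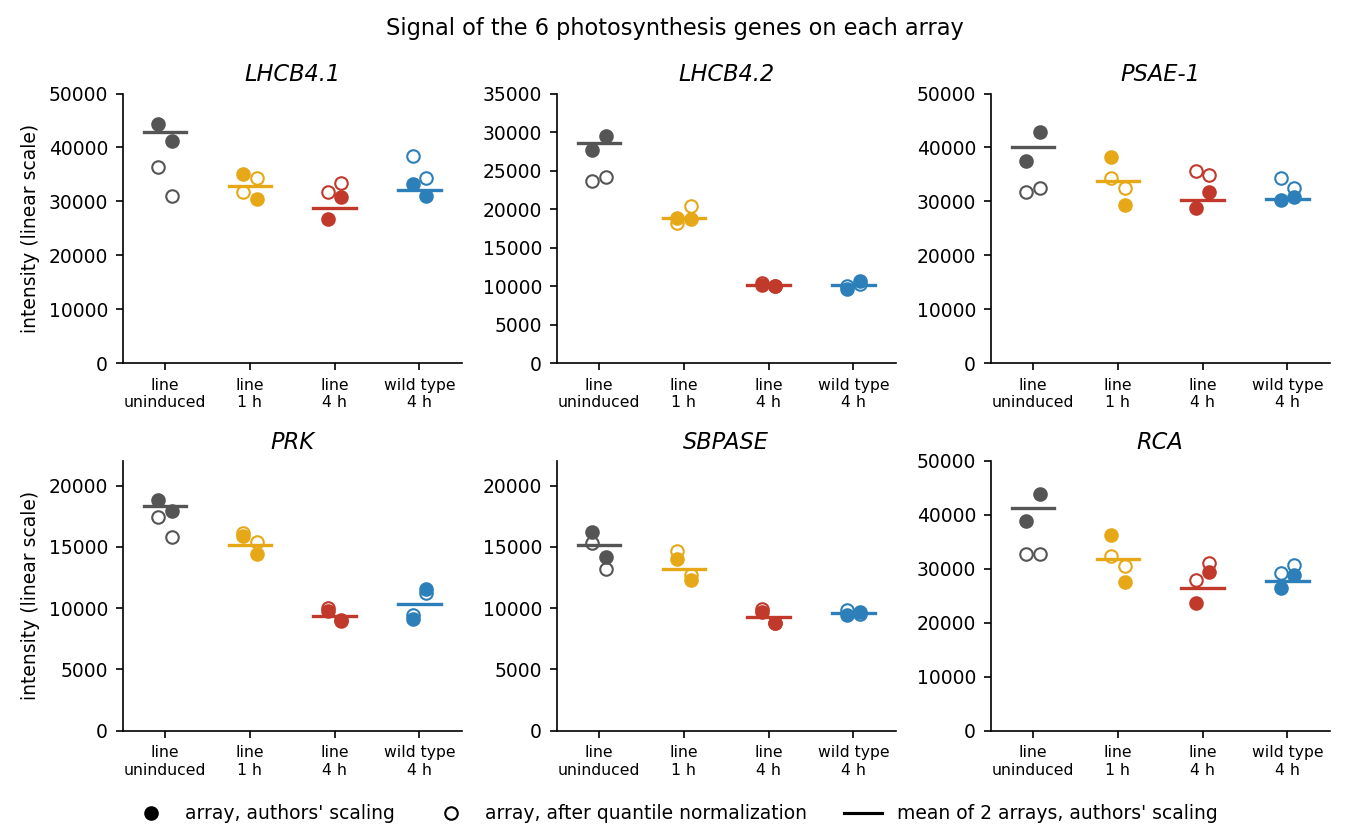
Intensity of each of the 6 genes (vertical axis, linear, from 0) on every array, by group, in the authors' scaling (filled points) and after quantile normalization (open points), with bars at the mean of 2 replicates. LHCB4.2 lies between 9621 and 10714 on the arrays of both groups at 4 h, against 27657 and 29510 on the uninduced arrays, while LHCB4.1, PSAE-1 and RCA differ between groups mainly in the filled points.

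LHCB4.1 and LHCB4.2 encode forms of the same minor antenna protein, which links the outer antenna to the core of photosystem II. LHCB4.2 had intensities of 27657 and 29510 in the uninduced line, 18864 and 18714 after 1 h, and 10184 and 10027 after 4 h. In wild type at 4 h they were 9621 and 10714. Its replicates lay close together within each group, the 1 h arrays stood between the uninduced and the 4 h arrays without overlap, and wild type spanned the line at 4 h. LHCB4.2 was 2.82-fold lower in the line at 4 h than uninduced, with a 95% interval of -1.735 to -1.255 for the log2 change (SE 0.11, n = 2 arrays per group, limma adjusted p = 9.32e-08), which is the largest fitted change of the 6 genes. In wild type the log2 change against uninduced was -1.49 (limma adjusted p = 1.49e-07). After quantile normalization both remained, at -1.22 and -1.23 (limma adjusted p = 1.93e-07 and 2.71e-07).

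LHCB4.1 had intensities of 44379 and 41259 in the uninduced line, 35103 and 30451 after 1 h, and 26747 and 30844 after 4 h. Wild type at 4 h had 33173 and 30919. All treated arrays lay below both uninduced arrays, but the groups at 1 h and at 4 h overlapped. LHCB4.1 fell in the line at 4 h by 0.57 on the log2 scale (SE 0.12, limma adjusted p = 0.00144), and its change in wild type was -0.42 (limma adjusted p = 0.0145). The wild type call was lost without uninduced replicate 1 or wild type replicate 2 (adjusted p 0.0933 to 0.116). After quantile normalization the change in the line was -0.04 with a 95% interval of -0.25 to 0.161 (limma adjusted p = 0.758), and in wild type it was 0.11 with an interval of -0.095 to 0.316, the opposite sign. Cyclic loess kept both calls, at -0.41 in the line and -0.32 in wild type (limma adjusted p = 0.00747 and 0.0344).

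Within each array the intensity of LHCB4.2 was set against that of LHCB4.1 as a log2 ratio, to follow how this ratio differed between groups and not which gene had more transcript, since probe sets differ in brightness. The log2 ratio was -0.68 and -0.48 in the uninduced line, -0.89 and -0.70 after 1 h, and -1.39 and -1.62 after 4 h. It was -1.78 and -1.53 in wild type at 4 h. Both groups at 4 h therefore lay below the uninduced line and the 1 h samples without overlap, and the same held after quantile normalization, with -1.61 and -1.73 in the line at 4 h, -1.94 and -1.72 in wild type, and -0.62 and -0.36 in the uninduced line. The signal of LHCB4.2 thus fell more than that of its paralogue. Cross-hybridization between these closely related genes was not tested, nor was whether the top of the intensity scale limits the change seen for LHCB4.1.

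PSAE-1 encodes a stromal subunit of photosystem I, on the side where ferredoxin takes up electrons. Its intensities were 37441 and 42831 in the uninduced line, 38245 and 29408 after 1 h, and 28842 and 31777 after 4 h. At 4 h wild type gave 30295 and 30733. The groups at 4 h lay below both uninduced arrays, while the 2 arrays at 1 h stood far apart, 1 of them above the lower uninduced array. PSAE-1 had the smallest change of the 6: it fell by 0.40 in the line at 4 h (SE 0.13, limma adjusted p = 0.0261) and changed by -0.39 in wild type (limma adjusted p = 0.034). Without uninduced replicate 2 or 4 h replicate 1 the change in the line no longer passed (adjusted p 0.158 to 0.176), and in wild type its call failed on leaving out uninduced replicate 2 or any 1 array of wild type (adjusted p 0.123 to 0.209). After quantile normalization the change in the line was 0.13 with a 95% interval of -0.038 to 0.306, and in wild type 0.05 with an interval of -0.118 to 0.226, so the sign turned in both. Cyclic loess scaling gave -0.24 in the line (limma adjusted p = 0.113), which did not pass either.

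PRK encodes phosphoribulokinase, which makes the CO2 acceptor of the Calvin cycle with ATP. Its intensities were 18820 and 17891 in the uninduced line, 15900 and 14432 after 1 h, and 9754 and 8998 after 4 h. In wild type at 4 h they were 9122 and 11581. Both groups at 4 h lay far below the uninduced line and below the 1 h samples, and the wild type arrays overlapped those of the line. PRK fell by 0.97 in the line at 4 h (SE 0.13, limma adjusted p = 3.07e-05) and changed by -0.83 in wild type (limma adjusted p = 0.000159). Quantile normalization gave -0.80 and -0.69 (limma adjusted p = 4.61e-05 and 0.000248), so PRK was at 57.1% of its uninduced mean in the line and at 62.1% in wild type on that scale.

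SBPASE encodes sedoheptulose-bisphosphatase, an enzyme of the same regenerating branch of the cycle. Its intensities were 16191 and 14142 in the uninduced line, 13997 and 12336 after 1 h, and 9711 and 8777 after 4 h. Wild type at 4 h had 9445 and 9711. The pattern followed that of PRK: both groups at 4 h lay below all uninduced and 1 h arrays, and the 1 h arrays lay below both uninduced ones. SBPASE fell by 0.71 in the line at 4 h (SE 0.12, limma adjusted p = 0.000309) and changed by -0.66 in wild type (limma adjusted p = 0.000731). After quantile normalization the changes were -0.60 and -0.55 (limma adjusted p = 0.000713 and 0.00161).

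RCA encodes Rubisco activase, which frees the active sites of Rubisco from tightly bound sugar phosphates. Its intensities were 38894 and 43860 in the uninduced line, 36196 and 27647 after 1 h, and 23596 and 29496 after 4 h. At 4 h wild type gave 26527 and 28864. All treated arrays lay below both uninduced ones, with replicates at 1 h and 4 h wide apart. RCA fell by 0.65 in the line at 4 h (SE 0.14, limma adjusted p = 0.00238) and changed by -0.58 in wild type (limma adjusted p = 0.00621), a call that was lost without uninduced replicate 2 or wild type replicate 1 (adjusted p 0.0611 to 0.0714). After quantile normalization RCA stood at 89.8% of its uninduced mean in the line and at 91.4% in wild type, and the changes of -0.16 (95% interval -0.342 to 0.028) and -0.13 (95% interval -0.315 to 0.054) did not pass. With cyclic loess RCA fell in both, at -0.49 in the line and -0.48 in wild type (limma adjusted p = 0.00446 and 0.00564). Of the 3 carbon fixation genes, RCA was the one whose call was lost under quantile normalization.

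**Figure D2:**
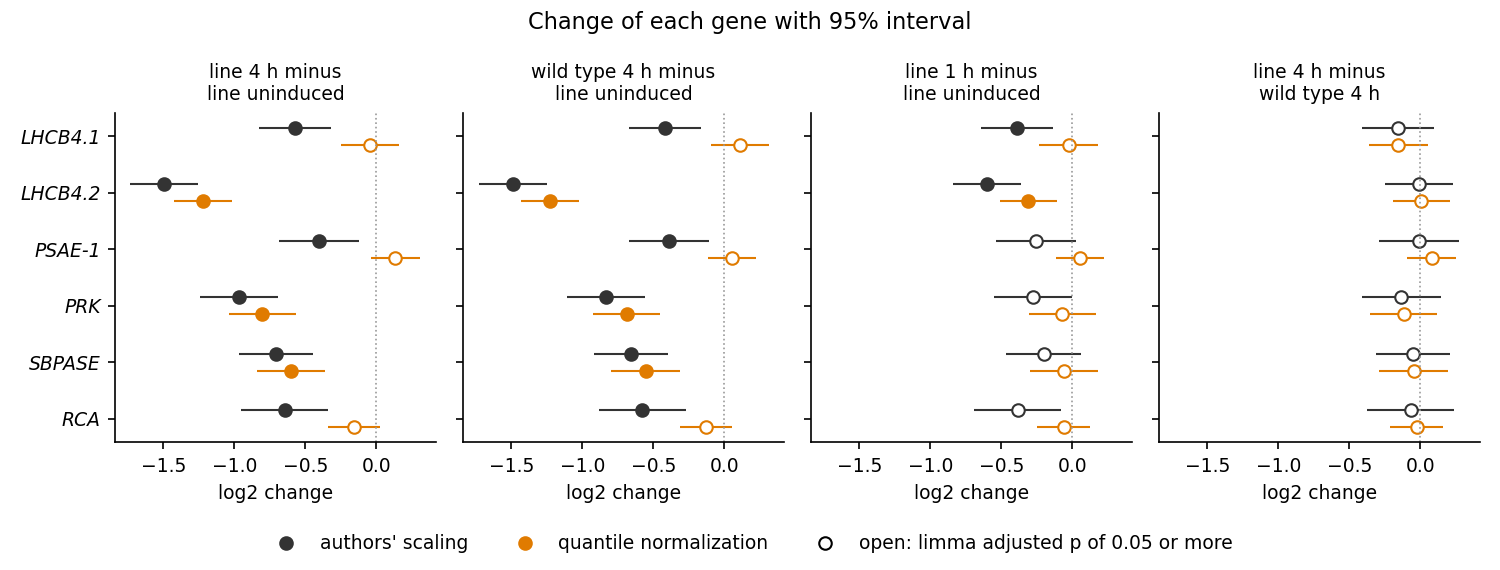
Log2 change of each gene with its 95% interval in 4 comparisons, under the authors' scaling (black) and after quantile normalization (orange), with open points where the adjusted p was 0.05 or more. LHCB4.2, PRK and SBPASE lie left of 0 under both scalings at 4 h in the line and in wild type, and in the panel of the line against wild type all intervals include 0.

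The line at 4 h was set against wild type at 4 h to ask what the active fusion added to the same time with dexamethasone. In that comparison 3.21% of tested probe sets were called lower and 6.63% were called in either direction. Of the 6 genes, 0 passed the limma test, 0 had an unadjusted p under 0.05, 0 passed after quantile normalization (where 3.25% were called lower), and the signals overlapped in 5 of them. The exception was LHCB4.1, whose arrays at 4 h in the line, 26747 and 30844, lay just below the wild type values of 33173 and 30919. A gap with the line below wild type was found for 26.3% of all tested probe sets, and after quantile normalization for 1 of the 6 genes and 25.3% of probe sets. PSAE-1 was parted the other way after quantile normalization, with 35593 and 34946 in the line and 34277 and 32465 in wild type. The differences ran from -0.16 for LHCB4.1 to -0.01 for LHCB4.2 and PSAE-1. A missed threshold does not show equal signals, and the 95% intervals were -0.247 to 0.233 for LHCB4.2, -0.41 to 0.144 for PRK, -0.314 to 0.208 for SBPASE, -0.293 to 0.27 for PSAE-1, -0.375 to 0.238 for RCA and -0.411 to 0.098 for LHCB4.1. For each of the 6 genes a difference as large as the line's own change at 4 h against uninduced lies outside this interval, under the authors' scaling. After quantile normalization that held for LHCB4.2, PRK and SBPASE but not for LHCB4.1, PSAE-1 and RCA. The same comparison is the test of whether the fall against the uninduced line differed between line and wild type.

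At 1 h, under the authors' scaling, the line had lower mean signals than uninduced for all 6 genes, between 65.7% and 86.8% of the uninduced mean, but few passed the test. LHCB4.2 fell by 0.60 (SE 0.11, limma adjusted p = 0.00122) and LHCB4.1 by 0.39 (SE 0.12, limma adjusted p = 0.0356), so 2 of 6 were called where 7.16% of all tested probe sets were called lower, a share that was 4.58% without uninduced replicate 1, where 1 of 6 was called. The call for LHCB4.1 was lost without either uninduced array, without 1 h replicate 2 and without each of the wild type arrays (adjusted p 0.0572 to 0.207), and without 1 h replicate 1 those of PSAE-1 and RCA were gained (adjusted p 0.0454 and 0.0221). After quantile normalization LHCB4.2 alone passed, at -0.31 (limma adjusted p = 0.0363), where 7.56% were called lower. On that scale LHCB4.2 was at 80.8% of its uninduced mean, PSAE-1 at 104%, and the other genes between 95.1% and 97.9%. Both 1 h arrays lay below both uninduced arrays for 5 of the 6 genes, all but PSAE-1, as they did for 26.9% of all tested probe sets. After quantile normalization this held for 2 of the 6, against 27.8%. Between 1 h and 4 h, 3 of the 6 fell further under both scalings, where 9.34% of probe sets were called lower under the authors' scaling. This comparison lies within 1 inferred run, though the run of 4 h replicate 2 is not recorded. The 3 genes were LHCB4.2 at -0.89 (limma adjusted p = 5.46e-05), PRK at -0.69 (limma adjusted p = 0.0015) and SBPASE at -0.51 (limma adjusted p = 0.00833). The call of SBPASE was lost without 1 h replicate 1 or 4 h replicate 2 and in the fit with no trend. Quantile normalization gave -0.91, -0.73 and -0.54 for these genes, where 9.58% were called lower. For these 3 genes the 4 h arrays also lay below both 1 h arrays, as they did for 29.6% of all tested probe sets, and after quantile normalization for 3 of the 6, against 29.4%. The changes of LHCB4.1, RCA and PSAE-1 between 1 h and 4 h, at -0.19, -0.26 and -0.15, did not pass.

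The place of each gene in the order of brightness on its own array is left unchanged by the authors' scaling and by quantile normalization, though not by every rescaling. LHCB4.2 held ranks 39 and 37 among 22746 probe sets on the uninduced arrays, 78 and 58 after 1 h, and 249 and 265 after 4 h. In wild type at 4 h it held 266 and 252. PRK stood at 265 and 308 in the line at 4 h, against 88 and 112 on the uninduced arrays, and SBPASE at 267 and 318, against 122 and 165. LHCB4.1, PSAE-1 and RCA stayed between rank 4 and rank 24 on every array, which does not show that their signal was unchanged. The brightest 1% of tested probe sets, 151 in number and without PRK and SBPASE, had a median change of -0.364 in the line at 4 h against uninduced. Of these 50.3% were called lower. After quantile normalization their median was -0.006. In wild type against uninduced the corresponding medians were -0.19 and 0.052, and 38.4% were called lower under the authors' scaling. Whether the lower signal at the top of these arrays reflects transcript or the measurement was not tested.

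**Figure D3:**
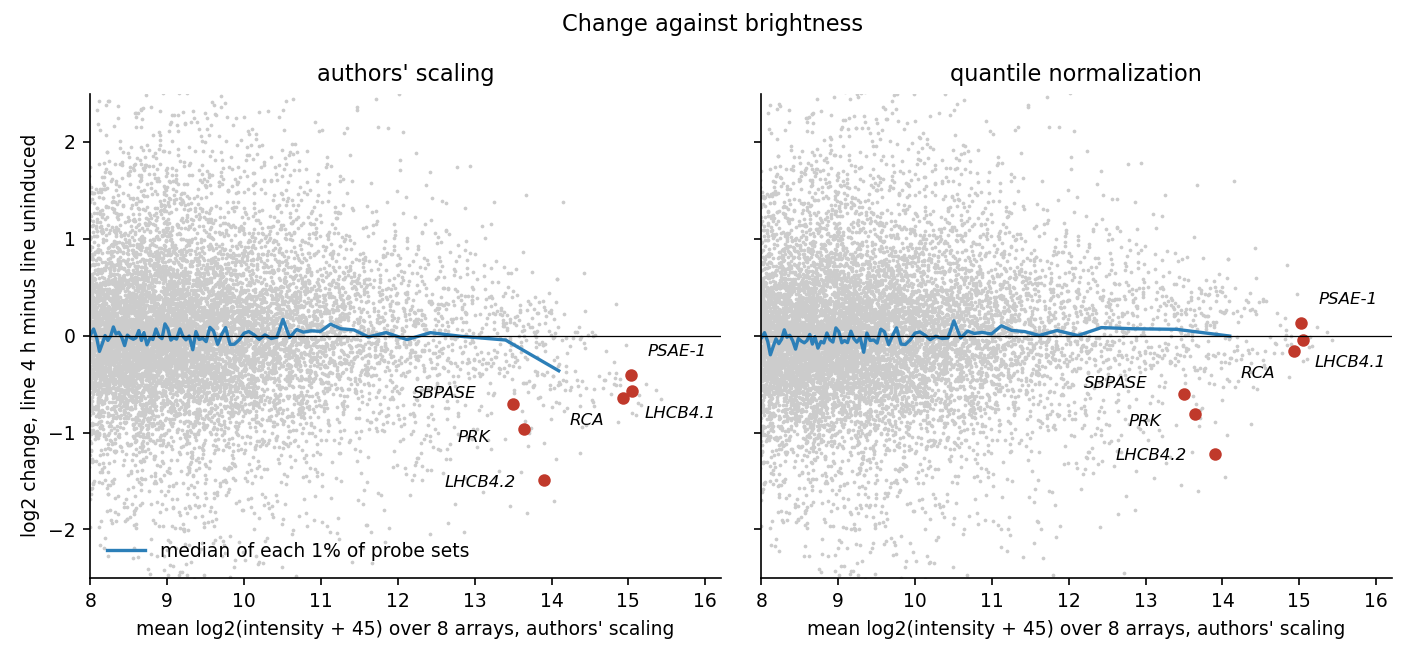
Change in the line at 4 h minus uninduced (vertical axis, log2) against the mean log2(intensity + 45) of each tested probe set, under the authors' scaling and after quantile normalization; the line is the median of each 1% of probe sets and the red points are the 6 genes. The median of the brightest 1% lies at -0.364 under the authors' scaling and at -0.006 after quantile normalization, where LHCB4.2, PRK and SBPASE still lie below the bulk. PRK and SBPASE lie between the 95th and 99th percentile of brightness, where the medians were -0.019 and 0.06.

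The likeness of the log2 profiles over the 8 arrays is given as a description, because the arrays share groups and scaling. Pearson's r was 0.973 between PRK and SBPASE, 0.969 between LHCB4.2 and PRK, and 0.958 between LHCB4.2 and SBPASE. It was 0.974 between RCA and PSAE-1, and LHCB4.1 was closest to RCA, at 0.909. The lowest was 0.761, between SBPASE and PSAE-1.

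Other genes of photosynthesis were taken from lists by role, which held 123 genes besides the 6, and 16 of those were read by their own probe set. In the line at 4 h against uninduced, 7 of the 16 fell and 0 rose by limma, with 0 higher at an unadjusted p under 0.05 as well, against 16.8% of all tested probe sets called lower, with a median change of -0.38 over the 16. In wild type against uninduced 7 of the 16 fell, with a median of -0.48, against 14.3% of all tested probe sets called lower. After quantile normalization the counts were 7 in both too, against 16.9% for the line and 14.7% for wild type. Set against wild type at 4 h, the line had 0 of the 16 past the limma test, where 6.63% of all tested probe sets were called in either direction. Of the 16, 0 had an unadjusted p under 0.05. The 7 were the same genes in both comparisons, and they came from both photosystems, the ATP synthase, chlorophyll synthesis and photorespiration. The antenna list had only LHCB4.3 left, and the Calvin cycle and regulator lists held no further gene with its own probe set.

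Among photosystem genes PSAN, a lumenal subunit of photosystem I, fell by 0.78 in the line at 4 h (limma adjusted p = 0.00054) and changed by -0.60 in wild type. PSB27, an assembly and repair factor of photosystem II, had a mean intensity of 6701 ± 903 in the line at 4 h and 7123 ± 1154 in wild type, against 14237 ± 1854 in the uninduced line (SD, n = 2 each). Its change in the line was -1.08 (limma adjusted p = 4.57e-05). The small photosystem II subunits PSBY and PSBW changed by -0.73 and -0.56 in the line, and ATPC1, the gamma subunit of the chloroplast ATP synthase, by -0.51. In wild type the calls of PSAN, PSBW and ATPC1 were lost without wild type replicate 1, and those of PSAN and PSBW also without uninduced replicate 2 (adjusted p 0.0643 to 0.102). ATPC1 was lost in the line without 4 h replicate 1 (adjusted p 0.0634). LHCB4.3, the third gene of the LHCB4 family, was dim, at 487 ± 88.6 in the line at 4 h, 357 ± 31.8 in wild type and 516 ± 168 in uninduced seedlings. Its change of -0.05 in the line did not pass (95% interval -0.503 to 0.395). PGRL1B, which acts in cyclic electron flow, was also dim, and its change of -0.50 did not pass.

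HPR, the peroxisomal hydroxypyruvate reductase of photorespiration, had a larger fitted change than any of the 6 genes, a difference between genes that was not tested. Its mean intensity was 16828 ± 282 in the uninduced line, 12613 ± 128 after 1 h and 5457 ± 229 after 4 h, and 5151 ± 80.3 in wild type at 4 h. It fell by 1.62 in the line at 4 h (limma adjusted p = 4.19e-08) and changed by -1.70 in wild type (limma adjusted p = 3.96e-08). Of the 8 chlorophyll synthesis genes 1 fell at 4 h: CHLM, the methyltransferase that acts on magnesium protoporphyrin, changed by -1.34 in the line and by -1.12 in wild type. HEMB1, which acts earlier in the pathway, had a change of -0.03 that did not pass. PORB, a protochlorophyllide reductase that works in light, averaged 8046 ± 979 in the uninduced line, 5292 ± 992 after 1 h and 8340 ± 484 after 4 h. It was lower at 1 h by -0.61 (limma adjusted p = 0.0079) and higher at 4 h than at 1 h by 0.66 (limma adjusted p = 0.00434), and its change of 0.06 in the line at 4 h against uninduced did not pass. The 1 h call of PORB was lost without uninduced replicate 2 or 1 h replicate 2 (adjusted p 0.0923 and 0.0934). At 1 h the other 2 of 3 genes called lower were CHLM at -0.68 and HPR at -0.42, and each was lost when single arrays were left out: HPR without any of the 4 arrays compared (adjusted p 0.0531 to 0.0831), CHLM without replicate 1 of either group (adjusted p 0.0572 and 0.0642).

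**Figure D4:**
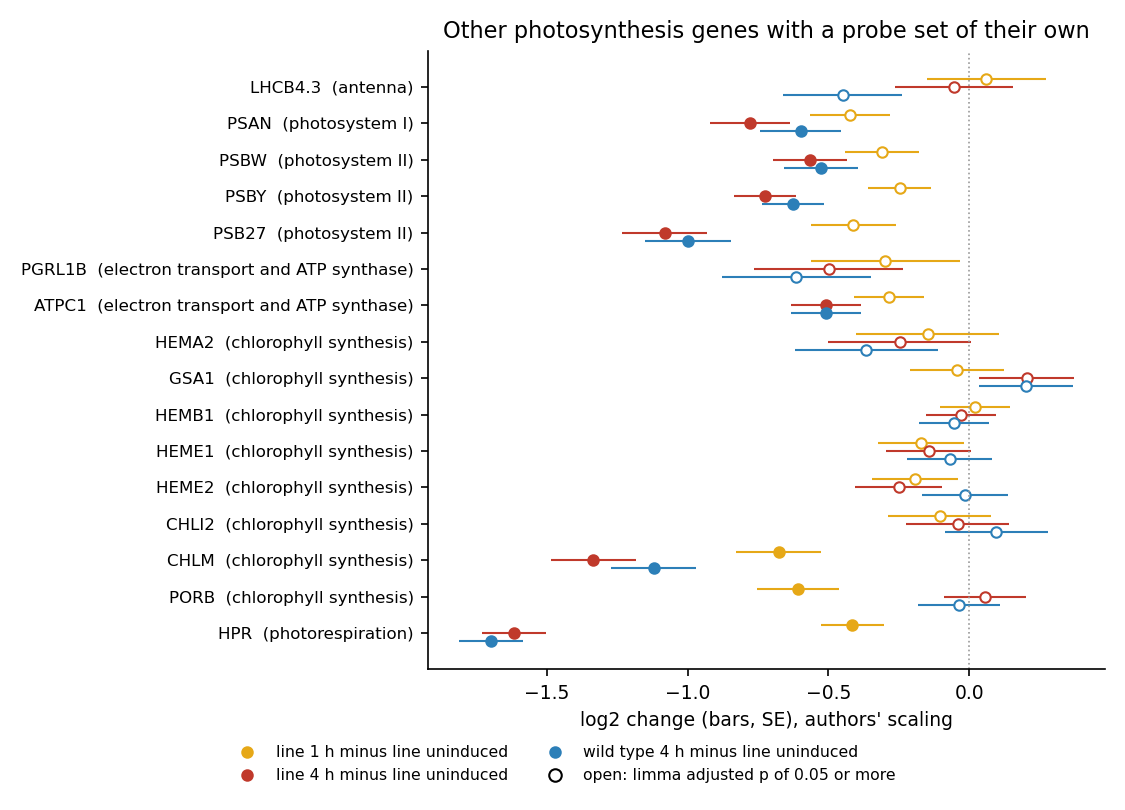
Log2 change with its SE of the 16 other photosynthesis genes with their own probe set, by role, in 3 comparisons, with open points where the adjusted p was 0.05 or more. PSAN, PSBW, PSBY, PSB27, ATPC1, CHLM and HPR lie below 0 with filled points at 4 h in the line and in wild type, and most genes of chlorophyll synthesis have open points near 0.

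Genes of a root list were looked at for the part of the seedling without photosynthesis, and 4 of 17 listed were read by their own probe set. Whether these 4 mark root alone in such seedlings was not tested. Their summed intensity was 8283 to 9458 in the line at 4 h, 11193 to 11245 at 1 h, 12946 to 13826 in wild type and 10899 to 11518 in uninduced seedlings, and none was at 0. Most of that sum came from PYK10, a beta-glucosidase gene of endoplasmic reticulum bodies. NAI2, needed to form these bodies, was lower in the line at 4 h than in wild type by -1.23 (limma adjusted p = 0.000122), higher in wild type than in the uninduced line by 0.60 (limma adjusted p = 0.0094, and 0.0888 without wild type replicate 1), and lower in the line at 4 h than uninduced by -0.63 (limma adjusted p = 0.0054). The root sum, which mostly follows PYK10, lay below the uninduced arrays in the line at 4 h and above them in wild type. PYK10 itself changed by -0.33 in the line (limma adjusted p = 0.0424, lost without single arrays at up to 0.283), and its change of 0.24 in wild type did not pass (limma adjusted p = 0.152). EXPA7 and EXPA18, expansin genes of root hairs, did not pass in either, with changes of 0.22 and -0.05 in the line and 0.46 and -0.56 in wild type. The part of root tissue in the fall of the photosynthesis genes was not tested.

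The genes whose log2 profile over the 8 arrays was most like the mean profile of the 6 were sought among 8132 tested probe sets with 1 gene. Under the authors' scaling the closest were ACYB-2, a cytochrome b561 family gene, with r = 0.988, then AT3G29240, AT1G19530, AT4G21450, AT3G43670 and AT3G47295. Quantile normalization gave 6 other genes, led by AT3G27050 with r = 0.993 and AT1G72160 with r = 0.992, so the choice depended on the scaling. AT3G29240 and AT1G19530 fell further than any of the 6, with log2 changes of -3.10 and -3.19 in the line at 4 h. From the photosynthesis lists PSB27 had r = 0.979 and rank 16 among the candidates, and PSBY had r = 0.971 and rank 35.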

How the data were processed

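RNA of 8 seedling samples had been hybridized to 1 array each. Per the submitters' processing notes the deposited values are MAS5 signal, whose version is not given in the sources used here: an intensity per probe set that the authors scaled to a common trimmed mean. Genes were named from the platform annotation, with loci from RefSeq (TAIR10.1, names only). The members and lists were chosen with earlier results of these data known. Control probe sets were left out of the tests. A probe set was tested above its array's 40th percentile on at least 2 arrays, as log2(intensity + 45), 45 being the table's 25th percentile. Such changes understate those of dim genes. All 8 arrays were fitted with 1 mean per group in limma 3.58.1 (R 4.3.3, eBayes with trend, 4 residual and 11.2 prior degrees of freedom). The 5 comparisons were each adjusted by Benjamini-Hochberg, and the script was tested on simulated data. Named were the 6 members, all listed genes of roles with at most 4 (otherwise the 3 brightest) and the 6 closest profiles. Replicate numbers did not pair the samples (correlations of deviations -0.064 to 0.033). Alternatives were quantile and cyclic loess scaling, a pseudocount of 1, no filter, no trend, only the groups compared, a replicate block and leaving out each array. Promoter and protein sequences were not used here.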

Additional observations from a re-analysis of the deposited data

Results flagged for a closer look

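Several genes changed differently at 4 h and at 1 h in the transgenic line, by the limma test of 4 h against 1 h itself. Below the 1 h level at 4 h were LHCB4.2 at -0.89, PRK at -0.69 and SBPASE at -0.51 on the log2 scale, and of the other photosynthesis genes HPR at -1.20, PSB27 at -0.67, CHLM at -0.66 and PSBY at -0.48. PORB went the other way, at 0.66. Without single arrays of the 4 compared, SBPASE, CHLM, PSB27 and PSBY lost this call, with adjusted p between 0.0533 and 0.0841. At 4 h the line differed from wild type in 2 root genes, NAI2 at -1.23 and PYK10 at -0.57, and PYK10 lost the call without 4 h replicate 2 or wild type replicate 1 (adjusted p 0.111 and 0.106). Each of these differences was tested, and none was weighed further.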

How the results depend on the processing

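In the line at 4 h against uninduced, quantile normalization left 3 of 6 genes lower, with a median of -0.38, and cyclic loess gave a median of -0.56. In wild type against uninduced, 3 were lower with quantile normalization, with no filter and with no trend, and the quantile median was -0.34. At 1 h against uninduced 1 gene was lower with quantile, with cyclic loess, with no filter, with no trend and with only the 2 groups compared, 1 to 4 when single arrays were left out, and the median was -0.06 with quantile and -0.22 with cyclic loess, and -0.47 to -0.20 without single arrays. For 4 h against 1 h the median was -0.53 to -0.25 without single arrays. Where a gene was called under the authors' scaling, signs turned with quantile normalization for LHCB4.1 in wild type (0.11) and for PSAE-1 in the line (0.13) and in wild type (0.05). Without a call under either scaling, the sign also turned for PSAE-1 at 1 h against uninduced (0.05) and at 4 h against 1 h (0.08). The same held in the line against wild type for PSAE-1 (0.08) and LHCB4.2 (0.01). Of the other photosynthesis genes, 1 h against uninduced had 0 lower with no trend and 1 to 4 without single arrays, 4 h against 1 h had 1 lower and 0 higher with no trend and 1 to 4 lower and 1 to 2 higher without single arrays, and wild type had 4 to 8 lower. Under the alternatives run, LHCB4.2 kept its calls in the 4 comparisons where it was called and PRK in its 3, while SBPASE lost 4 h against 1 h with no trend. The cause of these shifts was not tested. With replicate number as a block the members lower were 6, 2, 6, 0 and 3, as without it, and probe sets called were 5295 against 5354 in the line at 4 h against uninduced. Leaving out single arrays moved all calls by over 1.5 times in 3 comparisons: 4679 to 2947 in wild type against uninduced without wild type replicate 1, 996 to between 498 and 632 in the line against wild type without any 1 array of either, and 2957 to between 1835 and 1848 in 4 h against 1 h without 1 h replicate 1 or any 1 array at 4 h. Lower calls alone also moved by over 1.5 times, from 1076 to 680 at 1 h against uninduced without uninduced replicate 1, and from 482 to 319 in the line against wild type with no trend. LHCB4.1, PSAE-1 and RCA lie at the top of the intensity scale, and whether this limits the change seen for them was not tested.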
